A study of Mus musculus with 6 samples.

Results

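The signal transducers and activators of transcription (STATs) were followed in lung RNA of mice with EGFR-driven lung cancer that ate a high-fat diet or a regular diet. The genes were Stat2, Stat3, Stat4, Stat5a, Stat5b and Stat6, chosen by name, and their probe sets were all those that the platform annotation assigns to exactly 1 of these genes. This gave 13 probe sets for 6 genes, out of 45037 probe sets and 18193 genes measured. A probe set is a group of short probes that reads 1 part of a gene's transcripts. For each gene the probe set with the highest mean signal was taken as its lead, and the others are described beside it.

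Both groups carried the CC10-rtTA and tet-O-EGFR-L858R transgenes, in which doxycycline turns on a mutant human EGFR. The CC10 promoter is active in airway secretory cells, so the oncogene is driven from the epithelium, while RNA was taken from whole lung. Mice labeled HFD+Dox, called LC-HFD here, ate a high-fat diet with 60% of its energy from fat, and they were set against mice labeled RD+Dox, called LC-RD, which ate a regular diet. All mice received doxycycline, mixed into the food at 625 ppm and given in the drinking water at 2 mg/ml. The labels give 8 weeks of diet before 7 weeks of doxycycline, whereas the methods give 2 weeks before 8 weeks, in male mice of 6 to 8 weeks at the start. Each group had 3 mice with 1 array each, and mice without the EGFR transgene were not analyzed here. Surfactant protein C, Sftpc, which marks alveolar type II cells, had a log2 value of 13.81 on each of the 6 arrays by its brightest probe set. Such uniform values are at the ceiling of the scale, so they check the tissue but not its level, and the other Sftpc probe set differed by 1.449.

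STATs are latent transcription factors that carry signals from cytokine receptors to the nucleus. A cytokine brings together receptor chains with bound Janus kinases (JAKs), which phosphorylate the receptor and then the STAT that docks on it. Phosphorylated STATs pair, enter the nucleus and bind DNA. STAT2 joins IRF9 to carry type I and type III interferon signals, STAT3 serves the IL-6 family and several growth factor receptors including EGFR, STAT4 serves IL-12, STAT5A and STAT5B serve IL-2, GM-CSF, growth hormone and prolactin, and STAT6 serves IL-4 and IL-13. Activity is set by phosphorylation, which arrays do not read, so every value below is an RNA level. In whole lung, fewer cells of a type and less RNA per cell cannot be told apart.

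The promoters of the genes whose lead probe set rose in LC-HFD lungs, Stat2 and Stat3, are shown because STATs are known to be targets of their own pathways. Sequences were taken from RefSeq for build GRCm38.p6, each 300 bases long and covering 250 bases before to 50 after the start of transcription. They lie at chr10:128270248-128270547 on the plus strand for Stat2 and at chr11:100939491-100939790 on the minus strand for Stat3. Capitals mark motif matches.
Stat2: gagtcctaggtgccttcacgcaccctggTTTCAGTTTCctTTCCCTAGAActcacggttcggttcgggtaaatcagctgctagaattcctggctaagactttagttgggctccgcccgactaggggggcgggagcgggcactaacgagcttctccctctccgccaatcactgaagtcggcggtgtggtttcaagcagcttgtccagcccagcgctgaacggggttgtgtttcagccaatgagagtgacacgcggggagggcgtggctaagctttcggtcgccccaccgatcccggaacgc
Stat3: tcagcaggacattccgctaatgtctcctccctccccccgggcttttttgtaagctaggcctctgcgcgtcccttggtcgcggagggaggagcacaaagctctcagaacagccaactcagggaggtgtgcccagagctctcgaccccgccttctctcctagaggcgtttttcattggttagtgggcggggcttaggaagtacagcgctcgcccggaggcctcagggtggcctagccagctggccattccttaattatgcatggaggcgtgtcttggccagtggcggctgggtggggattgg

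Promoters were found for 6 of 6 STAT genes, with a second start for Stat4, Stat5a and Stat5b, and 3 motifs were searched on both strands. The core of the interferon-stimulated response element, searched as TTTC and another TTTC with 2 bases between them, was present once in the Stat2 window as TTTCAGTTTC, 212 bases before the start. It was also present once on the opposite strand at the second start of Stat4, where the window itself reads GAAAGTGAAA, 87 bases before the start. It was found in 3.44% of 32841 mouse promoters of this length. The palindrome bound by most STATs, TTCNNNGAA, was in none of the STAT windows and in 8.3% of all promoters. The wider form with 4 bases between TTC and GAA, which STAT6 prefers, was in the Stat2 window as TTCCCTAGAA, 200 bases before the start, and in 6.95% of all promoters. It does not overlap the interferon element beside it. These matches are letters in a window and say nothing of binding in these lungs. By annotation Stat5b, Stat5a and Stat3 are consecutive protein-coding genes on chromosome 11, Stat2 and Stat6 lie on chromosome 10 and Stat4 on chromosome 1.

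To compare STAT levels between the diets, the log2 values of the groups were set against each other with limma, with p-values adjusted by Benjamini-Hochberg over all 45037 probe sets. A probe set was taken as changed at an adjusted p under 0.05. Of the 13 STAT probe sets 5 were higher in LC-HFD, 0 were lower and 8 did not pass. The 5 were both Stat2 probe sets and 3 of the 4 Stat3 probe sets. Across the whole array 25% of probe sets passed, 11.3% as higher and 13.6% as lower. At the level of lead probe sets 2 of 6 STAT genes passed, both higher, where 27.3% of all genes passed by their brightest probe set, 11.1% as higher and 16.2% as lower. No STAT probe set changed more than 2-fold, a size that 1.73% of all probe sets reached together with the adjusted p. The median log2 difference of the STAT probe sets was 0.184, beside 0.043 over all probe sets. All values of 1 group lay outside the range of the other for 7 STAT probe sets, 6 higher and 1 lower in LC-HFD, and for 43.8% of all probe sets, 22% higher and 21.8% lower.

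**Figure D1:**
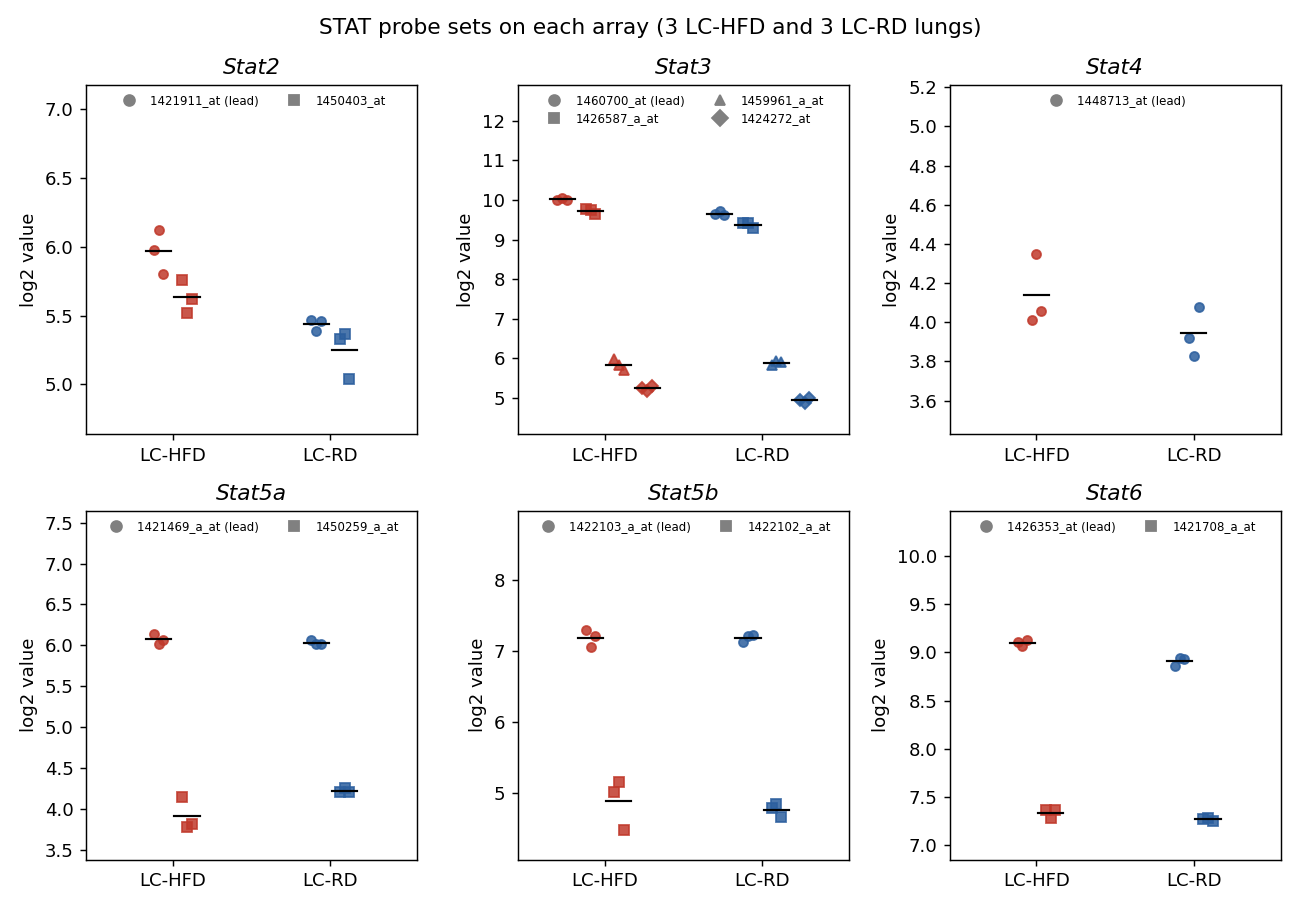
Deposited log2 values (vertical axis, a separate scale for each gene) of the 13 STAT probe sets on each array, with 3 LC-HFD lungs in red left of 3 LC-RD lungs in blue; marker shapes stand for probe sets and black lines for group means. The Stat2 groups stand apart for both probe sets, with the lead between 5.80 and 6.12 in LC-HFD and between 5.39 and 5.47 in LC-RD, whereas the Stat5b groups overlap.

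Stat2 had the largest change among the STAT probe sets. Its lead probe set, 1421911_at, read 5.98, 6.12 and 5.80 in LC-HFD lungs, against 5.47, 5.39 and 5.46 in LC-RD lungs. All LC-HFD values lay above all LC-RD values, and the LC-HFD mice differed more among themselves. The means were 5.97 ± 0.159 in LC-HFD and 5.44 ± 0.0453 in LC-RD (s.d., n=3 each), a log2 difference of 0.53 ± 0.0965 (s.e.), or 1.45-fold, with an adjusted p of 0.00853 in limma. A larger absolute change was seen for 10.9% of all probe sets. The second probe set, 1450403_at, read 5.76, 5.52 and 5.62 in LC-HFD, against 5.33, 5.37 and 5.04 in LC-RD. It moved the same way, by 0.39 ± 0.114 (1.31-fold, adjusted p = 0.0452), but did not keep its call when any 1 array was left out (adjusted p 0.0515 to 0.103). The changes of both probe sets differed by 0.143, which the spread between mice covered (exact permutation test, two-sided, p = 0.5). The lead kept its call without each array in turn, at an adjusted p of 0.0078 to 0.0417.

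Stat3, the STAT of IL-6 signaling, was higher in LC-HFD by 3 of its 4 probe sets. Its lead, 1460700_at, read 9.99, 10.04 and 10.01 in LC-HFD lungs, against 9.64, 9.71 and 9.62 in LC-RD lungs. The groups stood apart, with means of 10.01 ± 0.0271 in LC-HFD and 9.66 ± 0.0476 in LC-RD (s.d., n=3 each). The log2 difference was 0.35 ± 0.0696 (s.e.), or 1.27-fold, with an adjusted p of 0.0119 in limma. Without LC-RD replicate 1 the difference no longer passed, at an adjusted p of 0.0591. A change of this size was not rare on these arrays, where 25.6% of probe sets had a larger one.

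The other Stat3 probe sets did not all follow the lead. The second, 1426587_a_at, read 9.78, 9.74 and 9.65 in LC-HFD and 9.41, 9.41 and 9.29 in LC-RD, a difference of 0.36 ± 0.0773 (adjusted p = 0.0164). It lost its call without any 1 of the LC-RD arrays (adjusted p 0.0516 to 0.0552). The third, 1424272_at, read 5.25, 5.16 and 5.29 in LC-HFD and 4.93, 4.86 and 5.00 in LC-RD, a difference of 0.30 ± 0.0774 (adjusted p = 0.0294), and lost its call without LC-HFD replicate 1 or 3 or LC-RD replicate 1 or 2 (adjusted p 0.0549, 0.0731, 0.099 and 0.115). The change of the lead differed from theirs by -0.006 and 0.049, within the spread between mice (exact permutation test, p = 0.9 and 0.5). The fourth, 1459961_a_at, read 5.97, 5.82 and 5.70 in LC-HFD and 5.82, 5.92 and 5.90 in LC-RD, and here the groups overlapped. Its difference of -0.05 had a 95% confidence interval of -0.261 to 0.166 and an adjusted p of 0.726. The gap of 0.397 between its change and that of the lead gave an exact p of 0.1, the smallest that 3 against 3 arrays allow, and 0.233 after adjustment over the 7 within-gene pairs compared. Which transcript forms each probe set reads was not tested.

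Stat6, which carries IL-4 and IL-13 signals, was separated between the groups but did not pass. Its lead, 1426353_at, read 9.11, 9.06 and 9.13 in LC-HFD lungs, against 8.86, 8.94 and 8.93 in LC-RD lungs. The difference of 0.18 ± 0.0699 (1.14-fold) had a 95% confidence interval of 0.02 to 0.348 and an adjusted p of 0.0958. Under 4 of 17 other settings it passed, among them the methods' t-test (adjusted p = 0.036) and a minimum mean log2 value of 6 (adjusted p = 0.0157). The other probe set, 1421708_a_at, read 7.37, 7.28 and 7.36 in LC-HFD and 7.27, 7.28 and 7.25 in LC-RD, with a difference of 0.07 and an adjusted p of 0.484.

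Stat4, the IL-12 effector of T cells and NK cells, was read by 1 probe set of low signal. Stat4 read 4.01, 4.35 and 4.06 in LC-HFD lungs, against 3.92, 3.83 and 4.08 in LC-RD lungs, so the groups overlapped and LC-HFD replicate 2 was the highest. Its difference of 0.20 had a 95% confidence interval of -0.075 to 0.468 and an adjusted p of 0.248, so neither no change nor a 1.27-fold rise like that of the Stat3 lead lay outside the interval. None of the 8 measured T cell markers passed, and 1 of 5 NK cell markers did, Klrd1, lower in LC-HFD by -1.05. Of all genes 27.3% passed by their brightest probe set. The other NK cell markers gave 0.51 for Eomes, 0.34 for Nkg7, 0.10 for Ncr1 and -0.21 for Gzma. The mean log2 value of the T cell list lay between 4.813 and 4.989 in LC-HFD and between 4.842 and 4.944 in LC-RD, and that of the NK cell list between 4.379 and 4.843 in LC-HFD and between 4.484 and 4.827 in LC-RD.

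Stat5a and Stat5b, adjacent genes with closely related products, gave no call. The Stat5a lead, 1421469_a_at, read 6.14, 6.02 and 6.06 in LC-HFD, against 6.06, 6.02 and 6.02 in LC-RD, a difference of 0.04 with a 95% confidence interval of -0.128 to 0.205 (adjusted p = 0.715). The second Stat5a probe set, 1450259_a_at, read 4.15, 3.78 and 3.82 in LC-HFD, against 4.21, 4.25 and 4.21 in LC-RD. It was the 1 STAT probe set whose LC-HFD values all lay below those of LC-RD, by -0.30 (adjusted p = 0.0791), and it passed without LC-HFD replicate 1 (adjusted p = 0.0128). The Stat5b lead, 1422103_a_at, read 7.29, 7.05 and 7.21 in LC-HFD, against 7.12, 7.21 and 7.22 in LC-RD, with a difference of 0.00, an interval of -0.205 to 0.203 and an adjusted p of 0.992. Of all probe sets 99.6% had a larger absolute change. The second Stat5b probe set, 1422102_a_at, read 5.01, 5.15 and 4.48 in LC-HFD and 4.78, 4.84 and 4.66 in LC-RD (difference 0.12, adjusted p = 0.631), with LC-HFD replicate 3 well below its group.

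**Figure D2:**
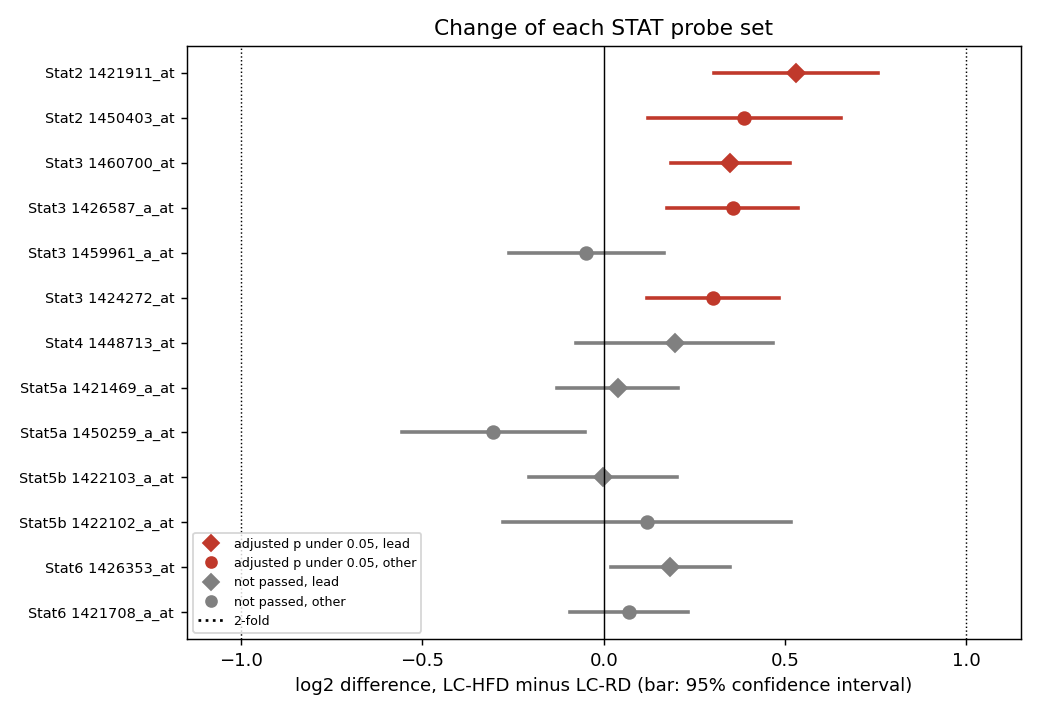
Difference of log2 values, LC-HFD minus LC-RD, on the horizontal axis for each STAT probe set, with 95% confidence intervals from limma as bars; red stands for an adjusted p under 0.05, gray for no call, diamonds for lead probe sets and dotted lines for a 2-fold change. The Stat2 lead lies farthest right at 0.53 and the Stat5b lead at 0.00, and no interval reaches the 2-fold lines.

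Differences in response between the STAT genes were tested on their lead probe sets, as the gap between a pair's log2 differences. Of 15 pairs 9 reached the smallest possible two-sided p of 0.1 in the exact permutation test, which became 0.167 after adjustment over the pairs. With 3 arrays per group this test cannot pass the 0.05 threshold, and no other test of the gaps was run. The Stat2 change exceeded that of Stat5b by 0.533, that of Stat5a by 0.493, that of Stat6 by 0.347 and that of Stat4 by 0.335, each at an exact p of 0.1. Against Stat3 the gap was 0.182 (exact p = 0.3). The Stat3 change exceeded that of Stat5b by 0.351 and that of Stat5a by 0.311 (exact p = 0.1 each), and that of Stat4 by 0.153 (exact p = 0.3). Stat5a and Stat5b differed by 0.04 (exact p = 0.5).

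As a description of the pattern over the 6 arrays, the genes most correlated with each STAT lead were listed among 9083 or 9084 genes whose mean log2 value was 6 or more. Stat2 went most closely with Nfic, Rnf214 and Purb (Pearson's r of 0.9966, 0.99602 and 0.99555), and Stat3 with Dynlrb1, Ube2v1 and Ctdnep1 (0.99855, 0.99813 and 0.99786). For Stat6 these were Itga7, Prpf40b and Keap1 (0.99342, 0.99255 and 0.99226). A value of r above 0.95 was reached by 741 genes with Stat3, 343 with Stat2 and 185 with Stat6, but by 13 with Stat4, 7 with Stat5a and 5 with Stat5b. The closest genes were Ppl for Stat4 (0.99773), Itpkc for Stat5a (0.99638) and Pom121 for Stat5b (0.97508). With 6 arrays in 2 groups, any gene that differs between the groups correlates with every other such gene, so these values carry no test.

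The genes that act before and after the STATs were then read from 10 lists of JAKs, ligands, receptors, inhibitors, partners and known targets, with 170 genes measured in all. Of these 56 passed, 34 higher and 22 lower in LC-HFD, and 9 of them changed over 2-fold. The lists were chosen with earlier results of these data known, so their counts are a description and carry no test. Without genes known to have changed when the lists were written, 7 of 29 receptor chains, 5 of 28 ligands and 3 of 18 inhibitors passed. So did 11 of 24 STAT3 targets (5 higher, 6 lower) and 3 of 14 STAT5 targets (2 higher, 1 lower). A gene was read by its brightest probe set, and the share of all genes that passed in this way was 27.3%, 11.1% as higher and 16.2% as lower.

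Of the 4 JAKs 1 passed, or 25%, where 27.3% of all genes did. Jak2, which serves growth hormone, leptin and GM-CSF receptors, read 8.25, 8.27 and 8.40 in LC-HFD lungs, against 8.59, 8.56 and 8.55 in LC-RD lungs. It was lower in LC-HFD by -0.26 ± 0.0754 (adjusted p = 0.0425), a call lost without LC-HFD replicate 1 or 2 or any LC-RD array (adjusted p 0.0829 to 0.141), after median centering (0.0538) and after quantile normalization (0.0843). Tyk2, which works with STAT2 at interferon receptors, read 7.39, 7.31 and 7.39 in LC-HFD and 7.20, 7.12 and 7.08 in LC-RD, a difference of 0.23 that did not pass (adjusted p = 0.062). Tyk2 passed under 6 alternatives, among them quantile normalization (adjusted p = 0.0229), median centering (0.0465) and the methods' t-test (0.0463). Its other probe set gave -0.197. Jak3, the kinase of the common gamma chain, differed by 0.21 (adjusted p = 0.0802), and Jak1 by 0.11 (adjusted p = 0.287). The groups of each JAK stood apart, as those of 43.8% of all probe sets did.

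Among 30 measured cytokines and hormones 1 was higher in LC-HFD and 6 were lower, so that 23.3% passed, where 27.3% of all genes did. A mean log2 value under 4, near the background of the arrays, was found for 16 of the 30. The one higher was Ebi3, a subunit of IL-27 and IL-35, by 0.34. Csf2, which encodes GM-CSF, an activator of STAT5, read 4.99, 4.85 and 4.86 in LC-HFD, against 6.33, 6.52 and 6.53 in LC-RD. Its difference of -1.56 ± 0.0883 (0.34-fold, adjusted p = 0.000175) was the largest of the list. Il6, the founding ligand of STAT3, read 4.10, 4.16 and 4.34 in LC-HFD, against 5.21, 5.33 and 4.80 in LC-RD, a difference of -0.91 ± 0.146 (adjusted p = 0.00539). Other cytokines of the IL-6 family did not all follow. Osm, oncostatin M, read 5.32, 5.51 and 5.22 in LC-HFD and 6.10, 6.17 and 5.96 in LC-RD (-0.73 ± 0.101, adjusted p = 0.00327). Clcf1 differed by -0.68 (adjusted p = 0.0213), but its 3 probe sets ran between -0.678 and 0.355 and the call was lost without LC-RD replicate 2 or 3 (adjusted p 0.0788 and 0.0616). Lif differed by -0.37 (adjusted p = 0.0303), with its other probe set at 0.057. Il11 and Ctf1, of the same family, gave 0.26 and -0.21 and did not pass (adjusted p 0.0503 and 0.113), with the Il11 groups apart and higher in LC-HFD. Tslp, an epithelial cytokine that acts through STAT5, differed by -0.41 at a signal near background. The ligands of STAT4 and STAT6 gave no call. Il4 and Il13 differed by 0.43 and 0.26, Il12a and Il12b by 0.28 and 0.21, and Ifng by 0.00, all at low signal. The measured type I interferons, which signal through STAT2, gave no call either. Ifnb1, Ifna2 and Ifna4 differed by 0.05, 0.04 and 0.28, with mean log2 values of 2.90, 4.61 and 2.46.

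Of 30 measured receptor chains 2 were higher and 5 lower in LC-HFD, so that 23.3% passed, where 27.3% of all genes did. Il10ra, the ligand-binding chain of the IL-10 receptor, differed by -0.79 ± 0.149 (adjusted p = 0.0101), and its partner Il10rb by 0.27, with another Il10rb probe set at -0.4. Lepr, the leptin receptor, differed by -0.66 ± 0.179 (adjusted p = 0.035), Il7r by -0.49 ± 0.0898 (adjusted p = 0.00877), the growth hormone receptor Ghr by -0.42 and the LIF receptor Lifr by -0.32, with another Lifr probe set at 0.165. Cntfr was higher by 0.65 ± 0.127 (adjusted p = 0.011). For Il10ra, Lepr and Cntfr another probe set of the gene gave 0.012, 0.28 and -0.007, and the Lepr call was lost without LC-HFD replicate 3 or any LC-RD array (adjusted p 0.063 to 0.1). The shared chain of the IL-6 family, Il6st, differed by 0.07 (adjusted p = 0.454). Il4ra, the receptor chain that recruits STAT6, read 8.17, 8.11 and 8.04 in LC-HFD and 7.84, 7.96 and 7.89 in LC-RD (0.21, adjusted p = 0.0852), with its 3 probe sets between 0.208 and 0.393. Il12rb1, the receptor chain upstream of STAT4, was near background, at 3.30 ± 0.104 in LC-HFD and 3.31 ± 0.185 in LC-RD (s.d., n=3 each). The type I and type III interferon receptor chains Ifnar1, Ifnar2 and Ifnlr1 differed by -0.01, -0.18 and 0.02 and did not pass. Another Ifnar1 probe set gave -0.472, and the 3 of Ifnar2 ran between -0.326 and 0.499.

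Of 20 inhibitors 2 were higher and 1 was lower, so that 15% passed, where 27.3% of all genes did. Socs3, which is induced by STAT3 and blocks IL-6 receptor signaling, read 8.49, 8.37 and 8.53 in LC-HFD lungs, against 8.79, 8.71 and 9.06 in LC-RD lungs. It was lower in LC-HFD by -0.39 ± 0.109 (0.763-fold, adjusted p = 0.0384), opposite in sign to Stat3, and its 3 probe sets ran between -0.505 and -0.363. The call did not hold when any 1 array was left out (adjusted p 0.0516 to 0.0946), nor after quantile normalization (0.0514) or median centering (0.0583). Pias1, a SUMO ligase that restrains STAT binding to DNA, read 9.34, 9.30 and 9.26 in LC-HFD, against 8.77, 8.76 and 8.69 in LC-RD (0.56 ± 0.0701, adjusted p = 0.00229), although its 4 probe sets ran between -0.538 and 0.954. Pias4 differed by 0.39 (adjusted p = 0.0144), a call lost without LC-RD replicate 2 (adjusted p = 0.062). Cish, an inhibitor induced by STAT5, read 7.76, 7.89 and 7.71 in LC-HFD and 8.00, 7.93 and 7.97 in LC-RD, and its -0.18 did not pass (adjusted p = 0.127).

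Of 12 partners and coactivators 1 was higher and 2 were lower, so that 25% passed, where 27.3% of all genes did. Irf9, the DNA-binding partner of STAT2, read 7.45, 7.28 and 7.39 in LC-HFD, against 6.95, 7.02 and 7.12 in LC-RD. The groups stood apart, by 0.34 ± 0.0837 (1.27-fold, adjusted p = 0.0238), with the call lost without LC-HFD replicate 1 or 3 or LC-RD replicate 1 or 2 (adjusted p 0.0521, 0.057, 0.0989 and 0.0855). Med14, a subunit of the Mediator complex, differed by -0.53 (adjusted p = 0.018) and the acetyltransferase Kat2b by -0.31 (adjusted p = 0.0245). Other probe sets of these genes gave 0.393 and 0.368. Med14 did not pass without any 1 LC-RD array (adjusted p 0.055 to 0.069), and Kat2b did not without LC-HFD replicate 3 or LC-RD replicate 1 or 2 (adjusted p 0.0618, 0.0994 and 0.0936).

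**Figure D3:**
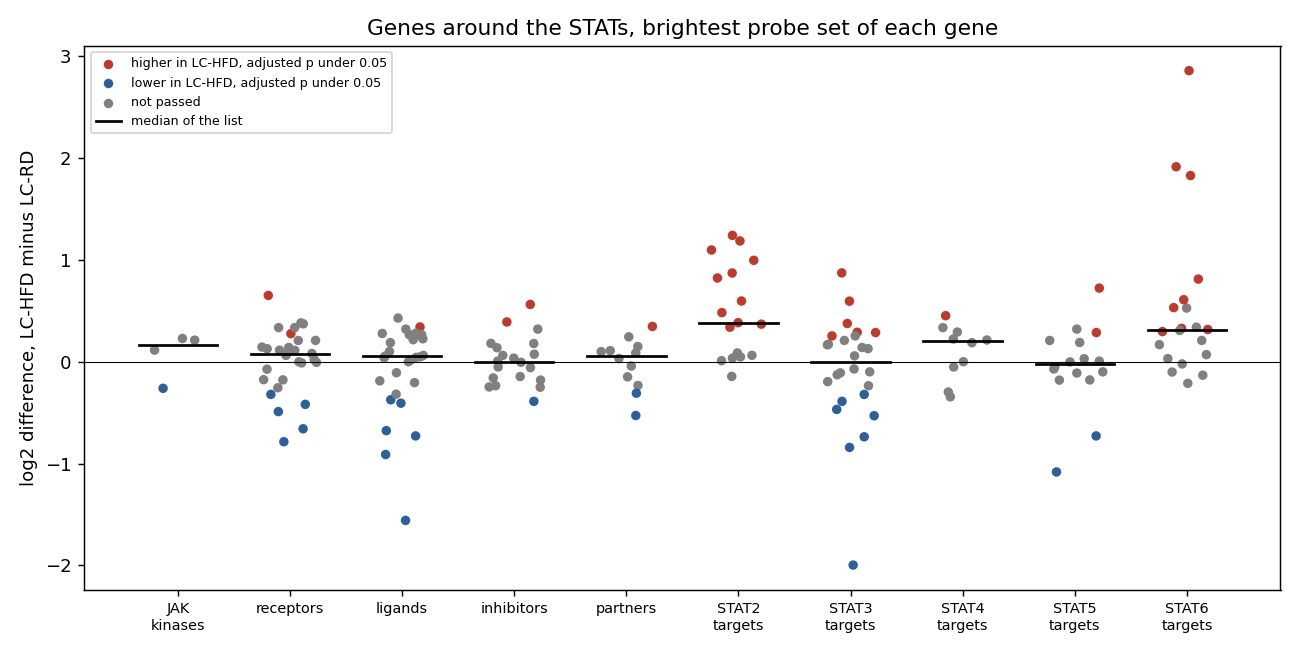
Difference of log2 values, LC-HFD minus LC-RD, on the vertical axis for each gene in 10 lists around the STATs, by its brightest probe set; red and blue points passed as higher and lower in LC-HFD, gray points did not pass and black lines are list medians. The medians of STAT2 and STAT6 targets lie at 0.382 and 0.31 with no blue point, while STAT3 targets spread to both sides of a median of -0.008.

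Known targets of STAT2 with IRF9 were higher in LC-HFD for 11 of 17 measured genes, with 0 lower and a median difference of 0.382. Thus 64.7% of this list passed, where 27.3% of all genes did, 11.1% as higher and 16.2% as lower. The oligoadenylate synthetases, which sense viral RNA, led the list. Oas2 read 6.60, 6.93 and 6.55 in LC-HFD, against 5.42, 5.53 and 5.41 in LC-RD (1.24 ± 0.115, 2.36-fold, adjusted p = 0.000819). Oasl2 read 7.41, 7.49 and 7.66 in LC-HFD, against 6.31, 6.40 and 6.29 in LC-RD (2.27-fold, adjusted p = 0.000415), and Oas1a 8.17, 8.20 and 8.16 in LC-HFD, against 7.16, 7.18 and 7.21 in LC-RD (1.99-fold, adjusted p = 0.000283). Oas3 rose 2.14-fold (adjusted p = 0.0101). The antiviral membrane protein Bst2 rose by 0.87, the interferon regulator Irf7 by 0.82, and Ifit1, Rsad2, Ifit3, Rtp4 and Xaf1 by 0.34 to 0.59. Other interferon targets did not pass, with differences of 0.01 for Ifit2, 0.09 for Mx1, 0.05 for Mx2, 0.06 for Usp18, 0.03 for Cmpk2 and -0.15 for Ifih1. Of the 17 genes 5 were known to have changed in these samples when the list was written, and among the 12 others 6 were higher, 0 lower and 6 not passed, with a median of 0.211.

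Known targets of STAT3 did not move in 1 direction. Of 26 genes 6 passed as higher and 7 as lower, and 13 gave no call, with a median of -0.008. Thus 50% of this list passed, where 27.3% of all genes did, 11.1% as higher and 16.2% as lower. The largest change was that of Fos, an immediate early gene with many inputs, which read 7.72, 7.66 and 7.63 in LC-HFD, against 9.68, 9.67 and 9.66 in LC-RD (-2.00 ± 0.0685, 0.251-fold, adjusted p = 3.6e-05). The acute phase regulators Cebpd and Cebpb were lower by -0.84 and -0.47, the survival gene Birc5 by -0.74, Myc by -0.53 and Mcl1 by -0.32, with the 6 probe sets of Mcl1 between -0.322 and 0.333. Saa3, an acute phase protein, read 7.52, 7.49 and 7.72 in LC-HFD, against 6.62, 6.72 and 6.77 in LC-RD (0.87 ± 0.0904, adjusted p = 0.00119). Bcl3, Fgg, Timp1, Bcl2l1 and Icam1 were higher by 0.25 to 0.59, with Fgg near background, and the Bcl2l1 call was lost without LC-HFD replicate 1 or 2 or any LC-RD array (adjusted p 0.0524 to 0.127). The acute phase genes Lcn2, Hp and Lrg1 gave -0.13, 0.06 and -0.11 and did not pass. In the same arrays 2 of 4 neutrophil markers were lower in LC-HFD, S100a8 by -0.85 and S100a9 by -0.92. The other 2, Csf3r and Cxcr2, went the opposite way, by 0.33 and 0.26, and did not pass. The mean log2 value of the neutrophil list was 6.699 to 6.919 in LC-HFD and 7.035 to 7.129 in LC-RD. The part of neutrophils in the STAT3 target values was not tested.

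Known targets of STAT6 were higher in LC-HFD for 9 of 20 genes, with 0 lower and a median of 0.31. Thus 45% of this list passed, where 27.3% of all genes did, 11.1% as higher and 16.2% as lower. Arg1, the arginase of IL-4-activated macrophages, read 6.15, 5.89 and 6.22 in LC-HFD, against 3.17, 3.35 and 3.17 in LC-RD (2.85 ± 0.109, adjusted p = 4.2e-05). The LC-RD values were near background, so the size of the ratio is uncertain. Clca1, a secreted product of goblet cells, read 4.62, 4.11 and 3.93 in LC-HFD, against 2.13, 2.49 and 2.31 in LC-RD (1.91 ± 0.184, adjusted p = 0.000928), with LC-RD again near background and a second probe set at 0.154. Ccl9, a chemokine whose place in this list is less settled, read 8.91, 8.86 and 8.80 in LC-HFD, against 7.02, 6.99 and 7.08 in LC-RD (1.83 ± 0.0729, 3.54-fold, adjusted p = 4.9e-05). The eosinophil attractant Ccl24 rose by 0.81 (adjusted p = 0.0244), a call lost without LC-HFD replicate 1 or 2 or LC-RD replicate 1 or 2 (adjusted p 0.0614 to 0.0705). The lipoxygenase Alox15 rose by 0.61, but its LC-RD mean of 3.34 was near background and the size of the change is uncertain, and the T cell attractants Ccl22 and Ccl17 by 0.53 and 0.33. Chil3 and Ccl8 rose by 0.29 and 0.32. Other targets in the list did not pass, with 0.17 for Retnla, -0.02 for Mrc1, -0.21 for Mgl2, -0.13 for Clec10a and 0.31 for Muc5ac. Without the 3 genes known to have changed when the list was written, 6 of 17 were higher, 0 lower and 11 not passed, with a median of 0.295.

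Several cell markers also differed between the groups. Of all genes 27.3% passed by their brightest probe set, 11.1% as higher and 16.2% as lower. Of 7 macrophage and monocyte markers 1 passed, Marco, higher by 0.77, and the list mean was 9.682 to 9.723 in LC-HFD and 9.568 to 9.576 in LC-RD. The median difference of that list was -0.004. Its other markers gave 0.20 for Itgax, 0.11 for Cd68, -0.004 for Adgre1, -0.02 for Mrc1, -0.03 for Csf1r and -0.14 for Lyz2. Of 10 lung epithelium markers 2 passed, Nkx2-1 higher by 1.26 and Krt18 by 0.42, with list means of 11.78 to 11.8 in LC-HFD and 11.63 to 11.65 in LC-RD. The median difference of the epithelium list was 0.012. Its other markers gave -0.21 for Epcam, -0.17 for Sftpa1, -0.11 for Scgb1a1 and -0.09 for Ager. Krt8, Sftpb, Cdh1 and Sftpc gave 0.19, 0.18, 0.02 and 0.00. Of 5 B cell markers 3 passed, Cd79a by 0.96, Pax5 by 0.42 and Ms4a1 by -0.70, with list means of 5.99 to 6.049 in LC-HFD and 5.887 to 5.965 in LC-RD. The median difference of the B cell list was -0.096. Of 3 adipocyte markers 2 passed, Adipoq by 0.70 and Fabp4 by 0.32, with list means of 4.836 to 4.906 in LC-HFD and 4.421 to 4.616 in LC-RD, although Adipoq was near background and the 4 probe sets of Fabp4 ran between -0.672 and 0.318. All 5 mast cell and basophil markers had a mean log2 value under 4, with list means of 2.973 to 3.062 in LC-HFD and 2.689 to 2.885 in LC-RD, and 1 of them passed, Tpsab1, by 0.38. Of 6 endothelial markers Pecam1 and Tek passed, by 0.37 and -0.38, and of 6 fibroblast and smooth muscle markers Pdgfra and Dcn, by -0.49 and -0.25. None of the 2 erythroid markers passed. The part of any of these cells in the STAT or target values was not tested.

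Of 10 STAT4 targets 1 passed, or 10%, and of 16 STAT5 targets 4 passed, or 25%, where 27.3% of all genes did. The STAT4 target was the protease gene Furin, which read 8.77, 8.64 and 8.76 in LC-HFD, against 8.20, 8.38 and 8.25 in LC-RD (0.45 ± 0.0827, adjusted p = 0.00888), while Ifng, Tbx21, Gzmb and Prf1, the genes of cytotoxic and type 1 helper cells, gave 0.00, 0.29, 0.21 and -0.30. The STAT5 targets that passed were 2 higher and 2 lower in LC-HFD, among them Bcl2l1 and Osm, given above. The cell cycle inhibitor Cdkn1a, which is also a p53 target, read 10.47, 10.54 and 10.52 in LC-HFD, against 9.83, 9.78 and 9.74 in LC-RD (0.72 ± 0.07, adjusted p = 0.000947). Id1, an inhibitor of helix-loop-helix factors that BMP signals also induce, averaged 7.96 ± 0.0785 in LC-HFD and 9.04 ± 0.0394 in LC-RD (s.d., n=3 each) and was lower by -1.08 ± 0.0756 (s.e., adjusted p = 0.000326). The STAT5 targets Socs2, Bcl6, Ccnd2, Pim1 and Igf1 gave 0.00, 0.03, -0.05, -0.07 and -0.11 by their brightest probe set, none of which passed. Their other probe sets did not all read the same. The 6 probe sets of Socs2 ran between -3.498 and 0.087, the 7 of Ccnd2 between -0.665 and 0.305, the pair of Bcl6 between 0.028 and 0.471, the pair of Pim1 between -0.072 and 0.238, and the 4 of Igf1 between -0.171 and 0.238.

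**Figure D4:**
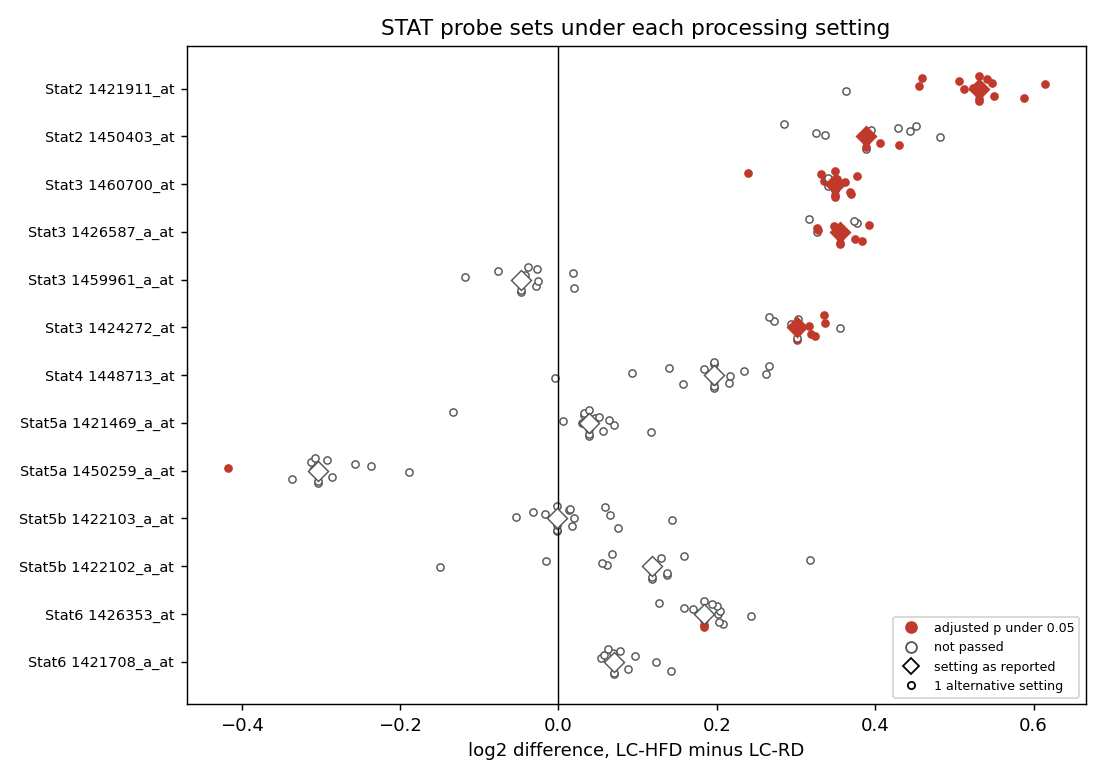
Difference of log2 values, LC-HFD minus LC-RD, on the horizontal axis for each STAT probe set under the reported setting (diamonds) and each alternative (circles), filled red where the adjusted p was under 0.05. The Stat2 and Stat3 leads passed under 15 of 16 and 15 of 17 alternatives, the Stat6 lead under 4 of 17, and the Stat4, Stat5a and Stat5b leads under 0.

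Facts that touch all of these values concern the arrays. The median probe set lay between 4.79 and 4.84, a log2 value of 6 was reached by 34.8% to 36.1% of them, and mice of a group differed by a median s.d. of 0.137 for LC-HFD and 0.0944 for LC-RD. Added hybridization controls, which carry no mouse RNA, averaged 11.5 on LC-HFD arrays and 10.0 on LC-RD arrays. The 18S rRNA probe sets averaged 7.61 on LC-HFD arrays and 12.5 on LC-RD arrays. The gap between 3' and 5' probe sets of control genes, a measure of RNA integrity, averaged 1.65 ± 0.061 in LC-HFD lungs and 1.73 ± 0.0293 in LC-RD lungs (s.d., n=3 each; exact permutation test, p = 0.1). With this gap as a covariate 0 STAT probe sets passed. The Stat2 lead then differed by 0.36 (adjusted p = 0.105), against 0.53 without the covariate. The Stat3 lead differed by 0.34 (adjusted p = 0.103), against 0.35 without it. Of the other probe sets that had passed, 1450403_at of Stat2 differed by 0.48, and 1426587_a_at and 1424272_at of Stat3 by 0.33 and 0.36 (adjusted p 0.127, 0.138 and 0.11). The groups did not overlap in the hybridization controls, the 18S rRNA or the gap between 3' and 5' signal. Effects of the diet and of the handling of the arrays therefore cannot be told apart.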

How the data were processed

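RNA of whole lungs was measured in 3 mice each of LC-HFD and LC-RD on Affymetrix Mouse Genome arrays, 1 per mouse. The authors deposited log2 values, 1 per probe set and array, made with GCRMA, a method that uses probe sequence to remove background and brings the arrays to a common scale. The methods name Partek software, and no source used here gives the versions. No sample column was left unused (0). Groups follow the sample labels.

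Values were not normalized again. Of 45101 probe sets 64 controls were set aside and 45037 were fitted with limma 3.58.1 in R 4.3.3 (moderated test, two-sided, Benjamini-Hochberg over all), with a call at an adjusted p under 0.05. By the platform annotation 34958 probe sets were tied to exactly 1 gene, 932 to more than that and 9211 to none, and 0 symbols needed updating. For single comparisons exact permutation tests were used, whose smallest two-sided p is 0.1. The 3 arrays per group limit the precision. The limma p-values set a difference against the spread within the groups, moderated over all probe sets. With 1 array per mouse, that spread holds the variation of both mice and arrays.

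Members and gene lists were chosen with earlier results of these data known. Named genes were all member probe sets, the 4 JAKs, up to 4 genes per list with the largest change among those that passed, Socs3, Cish, Irf9, Il6, Il6st, Il4ra and Il12rb1, and for each member the 3 most correlated genes; other genes were named after their values were seen.

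Alternatives were the methods' t-test, an intensity trend with robust variance, median centering, quantile normalization, array weights, a minimum of 4 or 6 for the mean log2 value, a replicate block, a covariate for the gap between 3' and 5' signal, a 2-fold threshold, other ways to choose a gene's probe set, and each array left out in turn. The fit was tested on simulated data. Motifs were searched with Python 3.11.15.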

Additional observations from a re-analysis of the deposited data

Results flagged for a closer look

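The hybridization controls, 18 probe sets for bacterial and phage transcripts added in equal amounts to each sample before hybridization, were used in no comparison of mouse genes and differed between the groups. They averaged 11.5 ± 0.0254 on LC-HFD arrays and 10.0 ± 0.0168 on LC-RD arrays (log2 values, s.d., n=3 each), a difference of 1.48, with all LC-HFD arrays above all LC-RD arrays (exact permutation test, two-sided, p = 0.1, the smallest possible). Poly-A controls, added earlier, differed by -0.42 and 18S rRNA by -4.92. Beta-actin differed by 0.03 and overlapped, and Gapdh by 0.24. The part of these differences in the STAT values was not tested.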

How the results depend on the processing

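Of the 13 STAT probe sets 5 passed. The count was 3 with a minimum mean log2 value of 6, where fewer probe sets were tested, 0 with the gap between 3' and 5' signal as a covariate and 0 over 2-fold, and between 1 (the Stat2 lead, without LC-RD replicate 1) and 4 with 1 array left out. With a minimum mean of 4 it was 7, by adding the Stat6 lead and the lower Stat5a probe set (adjusted p 0.0411 and 0.0479). Of the 6 leads 2 passed, 0 with the covariate and 1 to 2 with 1 array left out. With the methods' t-test, with an intensity trend and robust variance, and with a minimum mean of 4, 3 leads passed. With a minimum mean of 6 the count was 2, Stat3 and Stat6, because both Stat2 probe sets (means 5.70 and 5.44) were not tested there. Over all probe sets 11250 passed, 3558 with the covariate, 781 over 2-fold, and 5792 (without LC-RD replicate 2) to 11531 with 1 array left out. Of the 170 pathway genes, whose alternatives were added after seeing the data, 56 passed, 25 with the covariate and 32 (without LC-RD replicate 2) to 52 with 1 array left out. The cause of these moves was not tested. With the covariate the Stat3 lead differed by 0.3402 (0.3496 without it) and the Stat2 lead by 0.3627 (0.5312 without it).

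Same-numbered mice of both groups did not deviate together (correlation of deviations -0.043, -0.093 and -0.03), so the numbers were not taken as pairs. With the replicate block 3 STAT probe sets, 2 leads (adjusted p 0.0293 for Stat2 and 0.0446 for Stat3), 7906 of all probe sets and 38 pathway genes passed.

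Reversals touched only differences that had not passed. The Stat3 probe set 1459961_a_at gave 0.0195 after quantile normalization and -0.1183 to 0.0182 with 1 array left out (above 0 without LC-HFD replicate 3). Stat4 gave -0.0045 with the covariate and the Stat5a lead -0.1328 as the mean of its probe sets. The Stat5b lead gave 0.0748 after quantile normalization, 0.0171 after median centering, 0.1429 with the covariate, 0.02 with array weights, 0.0586 as the mean of its probe sets, and -0.0535 to 0.0656 with 1 array left out (above 0 without LC-HFD replicate 2 or LC-RD replicate 2 or 3). The second Stat5b probe set gave -0.1492 with the covariate and -0.0158 (without LC-HFD replicate 2) to 0.3172 with 1 array left out. Il12rb1 gave 0.0109 after centering, 0.0249 with weights, and -0.0989 to 0.0857 with 1 array left out (above 0 without LC-HFD replicate 1 or LC-RD replicate 3). Among named genes of the lists 467 values kept direction and side of the threshold, 71 lost the call, 15 gained it and 4 reversed. Centering and quantile normalization moved the median of all probe sets by 0.0185 and -0.0274.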
